A study of Mus musculus with 6 samples.

Results

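Ccl5, a secreted chemokine, and 4 genes for proteins described as its receptors or surface partners, Ccr1, Ccr3, Gpr75 and Cd44, were followed in RNA from sorted optic nerve microglia. The 5 genes were picked by symbol from a table of 37447 genes, each symbol matched 1 row, and all 5 passed the filter on low values. The tested libraries, called FMC, came from mice with the genotype Nf1 flox/mut plus a GFAP-Cre transgene (4 libraries, FMC 1 and FMC 4 from females, FMC 2 and FMC 3 from males). The control libraries, called FM, came from Nf1 flox/mut mice without the transgene (2 libraries, FM 1 from a male and FM 2 from a female). All were 3-month-old C57BL/6 mice, so every animal, controls included, had a floxed and a mutant copy of Nf1, a gene whose product restrains Ras signalling and whose loss causes neurofibromatosis type 1. The GFAP promoter drives Cre in astroglial cells and not in the microglia that were sequenced, so Nf1 RNA in these libraries is no check of the deletion. The labels call the libraries biological replicates and do not say whether a library holds 1 mouse or several. The series concerns optic glioma of such mice, and its title names Ccl5 as a chemokine of the tumour stroma.

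Ccl5 belongs to the CC chemokines, small secreted proteins with a pair of adjacent cysteines that bind glycosaminoglycans on cell surfaces and guide leukocytes along a gradient. It attracts T cells, monocytes and eosinophils and is made by activated T and NK cells, platelets and stimulated macrophages, microglia among them. Ccr1 and Ccr3 are chemokine receptors of the G protein-coupled class that signal through inhibitory G proteins. Gpr75 is an unusual receptor reported to respond to CCL5 in cultured cells, and Cd44, the main receptor for hyaluronan, has been described as an auxiliary partner for CCL5 bound to glycosaminoglycans. Other receptors of Ccl5 are not reported here.

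The values were FPKM, fragments that the authors divided by the length of the transcript and by how many were mapped in that library. Levels of different genes within a library can therefore be set side by side, but only roughly. The RNA was amplified, and no correction for a bias between genes was made here. Their sum per library ran from 420285 (FM 1) to 674799 (FMC 1), and from 13390 (FMC 3) to 15562 (FM 2) genes reached 1 FPKM. No counts were used here, so the number of fragments behind a value is not known. All 12 microglia markers were measured in all 6 libraries, among them the purinergic receptor gene P2ry12 (284, 185, 276 and 311 FPKM in FMC 1 to FMC 4, 239 and 403 FPKM in FM 1 and FM 2) and Tmem119 (290, 156, 297 and 365 FPKM in FMC, 216 and 440 FPKM in FM). Gfap, the astrocyte filament gene, was between 0.183 and 0.309 FPKM in all libraries but FM 2, where it was 3.06 FPKM. Nf1 was at 48.0, 58.1, 55.6 and 138 FPKM in FMC and at 39.3 and 50.0 FPKM in FM.

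The ligand differed most between the genotypes. Ccl5 (ENSMUSG00000035042, chromosome 11 from 83339280 to 83344020 in the mm9 build) stood at 113, 34.0, 38.6 and 471 FPKM in FMC 1 to FMC 4, against 2.35 and 3.05 FPKM in FM 1 and FM 2. The groups did not overlap: the lowest FMC library was 11.2 times the highest FM library, while the FMC libraries spread over a 13.9-fold range and the FM libraries over a 1.297-fold range. The means were 164 ± 208 FPKM in FMC (SD, n = 4) and 2.70 ± 0.49 FPKM in FM (SD, n = 2). Among the genes that reached 1 FPKM in a library, Ccl5 lay above 94.7%, 85.8%, 84.5% and 98.9% of them in FMC 1 to FMC 4, and above 21.3% and 24.8% in FM 1 and FM 2. Ccl5 therefore ranked among the more abundant expressed genes in each FMC library and among the less abundant in each FM library. In bulk libraries like these, more cells that make a transcript and more transcript per cell cannot be told apart.

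On the log2(FPKM + 1) scale the Ccl5 difference was 4.66 ± 0.98 (SE), with a 95% interval of 2.44 to 6.87. A fold on this scale understates the change of low genes. Ccl5 ranked 52 by p among the 18208 genes tested and 22 from the top by difference, and limma with adjustment over the whole table did not call it (adjusted p = 0.365). An exact permutation test over the 15 ways to draw 4 of 6 libraries gave a two-sided p of 0.0667, the smallest that this design allows. Without FMC 4, its highest library, the difference was 3.88. In libraries whose titles carry dates 1 day apart the log2 difference was 3.39 for FMC 2 against FM 1 and 3.29 for FMC 3 against FM 2. Within males it was 3.47 (2 FMC libraries against FM 1) and within females 5.84 (2 FMC libraries against FM 2). With 1 FM library on each side, the difference between sexes was not tested. The male FMC libraries are also the only ones with dates 1 day from an FM library, so sex and date cannot be told apart.

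**Figure D1:**
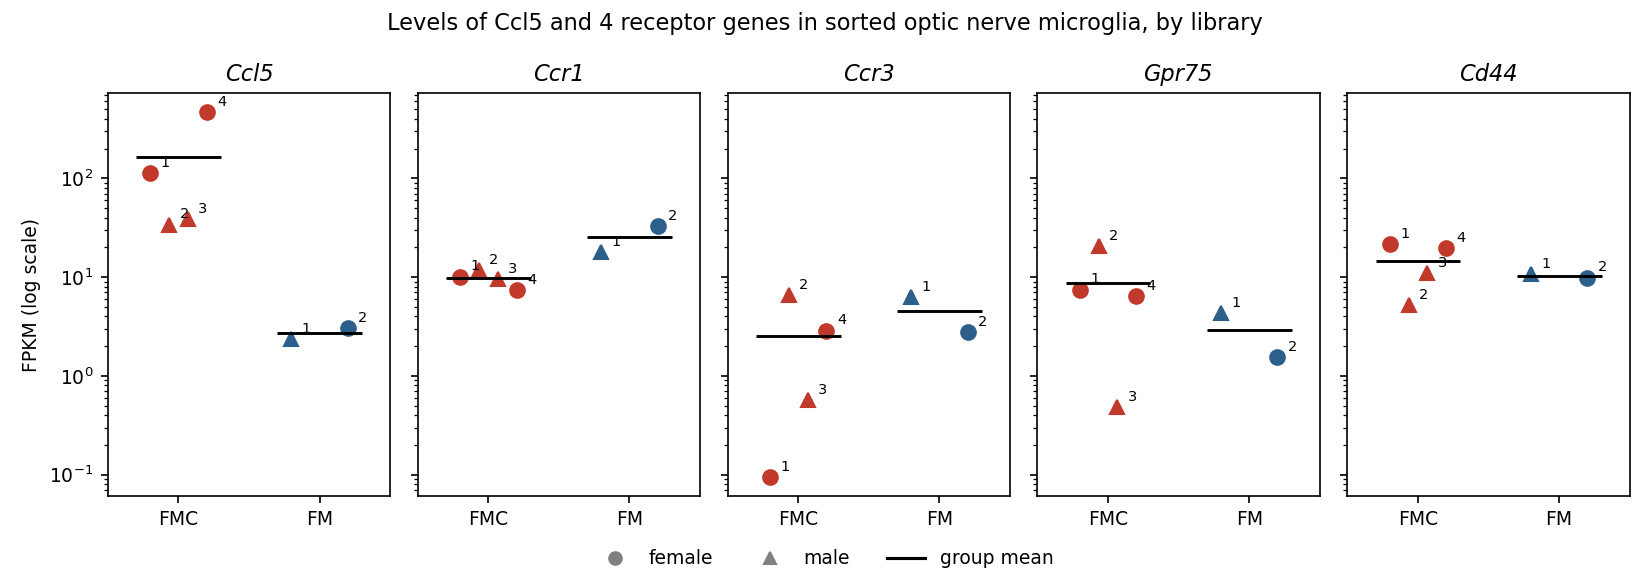
FPKM of Ccl5 and of 4 receptor genes (log axis) in each library, FMC at the left (n = 4) and FM at the right (n = 2). Circles are females, triangles males, small digits the replicate numbers and bars the arithmetic group means. Ccl5 lies between 34.0 and 471 FPKM in FMC and between 2.35 and 3.05 FPKM in FM, Ccr1 lies lower in all FMC libraries, and the other 3 genes overlap.

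Ccr1, a receptor shared by Ccl5 and several other inflammatory chemokines, had the opposite order. Ccr1 (ENSMUSG00000025804, chromosome 9 from 123876959 to 123883525) measured 10.1, 11.7, 9.49 and 7.44 FPKM in FMC 1 to FMC 4, against 17.9 and 32.9 FPKM in FM 1 and FM 2. All 4 FMC libraries lay below both FM libraries and within a 1.57-fold range of each other. The means were 9.68 ± 1.75 FPKM in FMC (SD, n = 4) and 25.4 ± 10.6 FPKM in FM (SD, n = 2). The log2 difference was -1.26 ± 0.55 (SE, 95% interval -2.51 to -0.02), which limma did not call over the whole table (adjusted p = 0.918), and the exact two-sided permutation test gave its smallest possible p of 0.0667. The size depended on the FM libraries: the difference was -0.84 without FM 2 and -1.68 without FM 1. In the libraries of adjacent dates it was -0.58 for FMC 2 against FM 1 and -1.69 for FMC 3 against FM 2.

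Ccr3, best known as the eotaxin receptor of eosinophils, was low and scattered. Ccr3 (ENSMUSG00000035448) lies on the same chromosome 9 from 123936703 to 123946421, 53.2 kb from Ccr1. It was at 0.0941, 6.61, 0.572 and 2.87 FPKM in FMC 1 to FMC 4, and at 6.31 and 2.76 FPKM in FM 1 and FM 2. The FMC libraries covered a 70.2-fold range that took in both FM values. The log2 difference was -0.98 ± 0.96 (SE, 95% interval -3.14 to 1.19; limma, adjusted p = 0.994), and the exact permutation test gave p = 0.533. With FMC 1 and FMC 3 under 1 FPKM and FMC 2 above both FM libraries, its spread within FMC exceeded the difference between the groups. FMC 1, at 0.0941 FPKM the lowest library for Ccr3, was at 10.1 FPKM for its neighbour Ccr1, near the FMC mean.

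Gpr75 was also scattered. Gpr75 (ENSMUSG00000043999, chromosome 11 from 30785358 to 30793729) measured 7.46, 20.8, 0.481 and 6.41 FPKM in FMC 1 to FMC 4, and at 4.31 and 1.54 FPKM in FM 1 and FM 2. FMC 1, FMC 2 and FMC 4 lay above both FM libraries and FMC 3 below both. The means were 8.78 ± 8.55 FPKM in FMC (SD, n = 4) and 2.92 ± 1.96 FPKM in FM (SD, n = 2). The log2 difference was 0.87 ± 1.08 (SE, 95% interval -1.57 to 3.31; limma, adjusted p = 0.999; exact permutation p = 0.533). Its sign differed between the pairs of adjacent dates, at 2.03 for FMC 2 against FM 1 and -0.78 for FMC 3 against FM 2.

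Cd44 was the steadiest of the 5 genes in FM. Cd44 (ENSMUSG00000005087, chromosome 2 from 102651298 to 102741822, a span that holds 1 U6 small RNA gene model) was at 21.6, 5.17, 11.1 and 19.8 FPKM in FMC 1 to FMC 4, and at 10.7 and 9.89 FPKM in FM 1 and FM 2. FMC 1, FMC 3 and FMC 4 lay above both FM libraries and FMC 2 below both. The means were 14.4 ± 7.7 FPKM in FMC (SD, n = 4) and 10.3 ± 0.6 FPKM in FM (SD, n = 2), which differed by 0.28 ± 0.68 in log2 (SE, 95% interval -1.26 to 1.81; limma, adjusted p = 0.999; exact permutation p = 0.733). Both female FMC libraries stood higher than FM 2, by 0.99 in the mean log2 level. The male FMC libraries averaged -0.44 relative to FM 1, with FMC 2 below and FMC 3 just above it. Sex and date cannot be told apart here either.

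**Figure D2:**
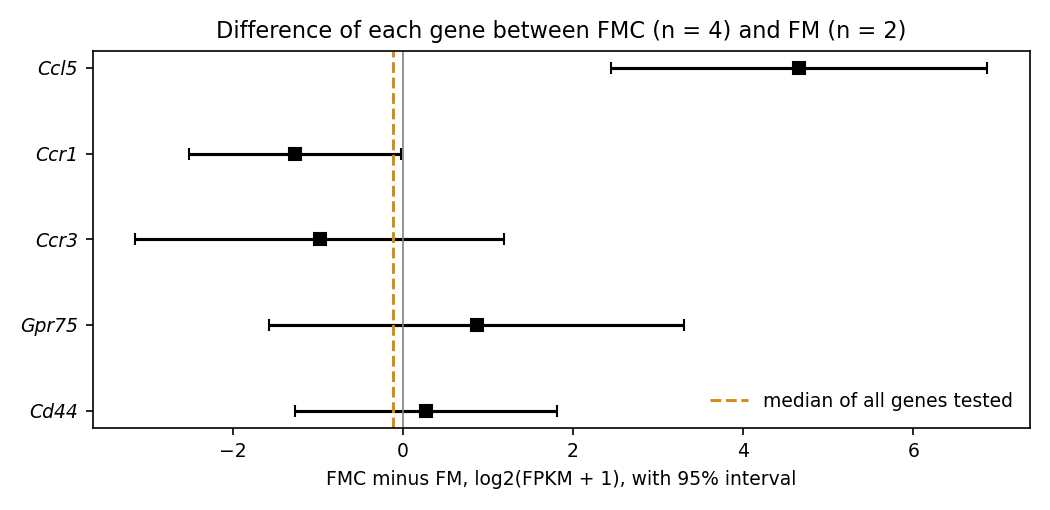
Difference of each gene between FMC (n = 4) and FM (n = 2) on the log2(FPKM + 1) scale, with 95% intervals from limma and, dashed, the median of all genes tested at -0.12. The intervals of Ccl5 (2.44 to 6.87) and Ccr1 (-2.51 to -0.02) leave out 0 before adjustment, and those of Ccr3, Gpr75 and Cd44 span it.

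Side by side, the order of the levels differed between the groups. Ccl5 had the highest level of the 5 genes in each of the 4 FMC libraries, the lowest in FM 1 and the third in FM 2. Ccr1 had the highest in both FM libraries and the third in each FMC library. Below Ccl5 the FMC means ran from Cd44 through Ccr1 and Gpr75 (8.78 FPKM) to Ccr3 (2.54 ± 2.97 FPKM, SD, n = 4). Neighbours in that order differed by less than the larger SD of the pair, though not always by less than the smaller. In FM, neighbours in the order Ccr3 (4.54 ± 2.51 FPKM), Gpr75 and Ccl5 likewise differed by less than the larger SD of the pair (n = 2). The ratio of Ccl5 to Ccr1 within a library, in which any scaling of the library cancels, was 11.1, 2.91, 4.07 and 63.4 in FMC 1 to FMC 4, and 0.131 and 0.0926 in FM 1 and FM 2. Ccl5 thus exceeded Ccr1 in all FMC libraries and lay under it in both FM libraries. This ratio was chosen after the values were seen and was not tested.

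Against the background of the whole table, limma called 0 of 18208 genes (0%) as higher in FMC and 5 (0.0275%) as lower, at the threshold of 0.05 on the adjusted p. None of the 5 genes described here was among them. This split rests on single libraries: limma called 0 genes without FMC 2, FMC 3, FM 1 or FM 2, 4 lower without FMC 1, and 4 higher and 4 lower without FMC 4. At any p, 7923 of the 18208 genes were higher in FMC and 10285 lower. At an unadjusted p under 0.05 limma gave 208 genes higher (1.14%) and 765 lower (4.2%), with Ccl5 among the higher and Ccr1 among the lower. Every FMC library exceeded both FM libraries in 4.34% of genes, and every FMC library was under both in 8.22%. Of the 5 genes, 1 lay wholly above (Ccl5) and 1 wholly below (Ccr1). A count of 1 in each direction is too small to read against these shares, and the genes were chosen with Ccl5 known to differ.

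The other CC chemokines give the setting of the ligand. Of 15 further CC ligands tested, limma called 0 in either direction (0 also at an unadjusted p under 0.05), 9 were higher and 6 lower in FMC, and their median log2 difference was 0.31, against -0.12 over all genes tested. That median was 0.056 without FMC 4 and 0.67 without FM 2. In 2 of the 15 (Ccl4 and Ccl11) every FMC library exceeded both FM libraries and in 0 the reverse held, against 4.34% and 8.22% of all genes. Ccl3 and Ccl4, macrophage inflammatory proteins that share receptors with Ccl5, were already abundant in the controls. Ccl3 was at 140, 50.5, 82.2 and 89.6 FPKM in FMC, and at 41.7 and 95.4 FPKM in FM, with overlapping groups. Ccl4 was at 57.9, 66.4, 58.3 and 141 FPKM in FMC, and at 46.9 and 33.1 FPKM in FM. All FMC values of Ccl4 lay above both FM values, by 0.91 ± 0.52 (SE) in log2 (limma, adjusted p = 0.993) with a 95% interval of -0.26 to 2.08.

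Of the other ligands that share a receptor with Ccl5, Ccl7 was at 43.8, 38.1, 15.1 and 40.6 FPKM in FMC and at 61.7 and 24.7 FPKM in FM. Ccl8 was at 54.6, 3.91, 3.30 and 31.5 FPKM in FMC and at 14.1 and 26.7 FPKM in FM. Both overlapped between the groups. Of the eotaxins, ligands of Ccr3, Ccl11 was at 1.31, 1.197, 0.480 and 1.16 FPKM in FMC, while FM 1 lists it at 0 and FM 2 at 0.315 FPKM. Ccl24 was at 0.256 and 0.305 FPKM in FMC 1 and FMC 2, listed at 0 in FMC 3 and at 4.34 FPKM in FMC 4, and at 0.700 and 4.00 FPKM in FM. Ccl17, which attracts T cells through another receptor, was at 20.8, 3.32, 0.129 and 1.92 FPKM in FMC 1 to FMC 4, with a listed 0 in FM 1 and 0.215 FPKM in FM 2 (log2 difference 1.93). FMC 1, FMC 2 and FMC 4 lay above both FM libraries, and FMC 3 did not.

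**Figure D3:**
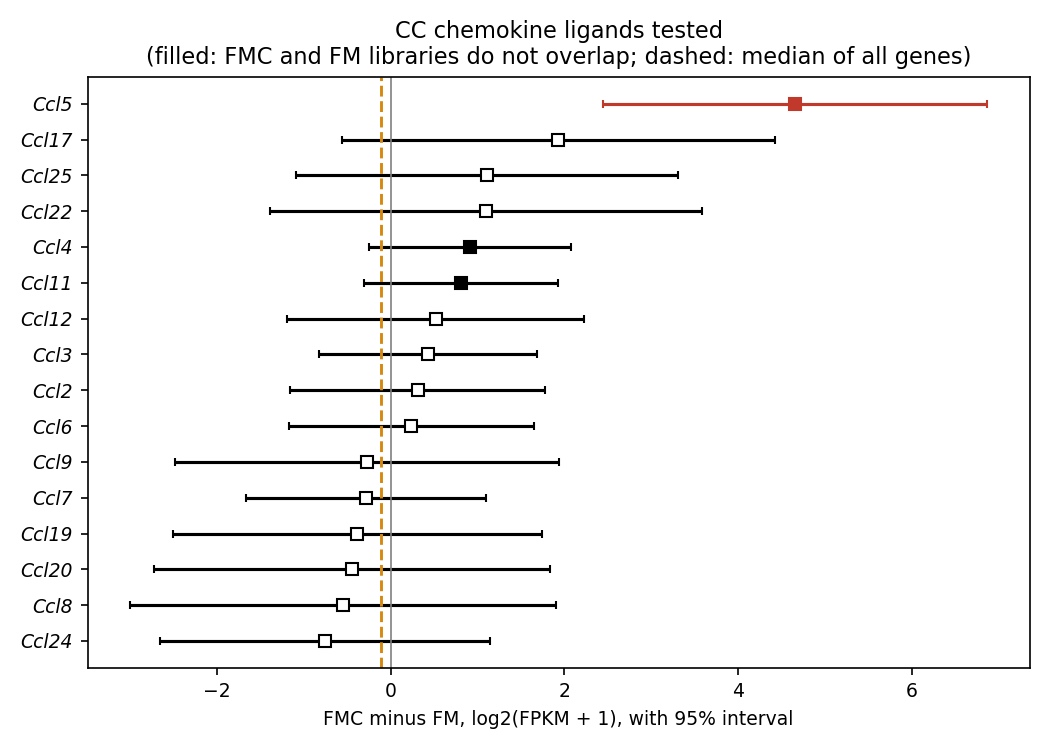
Differences between FMC (n = 4) and FM (n = 2) of Ccl5 and 15 other CC chemokine ligands on the log2(FPKM + 1) scale, with 95% intervals from limma. Filled squares mark genes whose FMC and FM libraries do not overlap (Ccl5, Ccl4 and Ccl11), and the dashed line is the median of all genes at -0.12. The interval of Ccl5 alone leaves out 0.

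Ccl5 lies in a cluster of chemokine genes, and most of its measured neighbours on chromosome 11 overlapped between the groups. Within 200 kb of Ccl5, a window set after the values were seen, the table holds 22 genes, of which 10 passed the filter. In 1 of these 10 (Ccl4) every FMC value exceeded both FM values, and the reverse held in 1, a predicted gene that is listed at 0 throughout FMC. Counts of 1 among 10 genes are too small to read against the 4.34% and 8.22% of all genes. Ccl9, 42401 bases away, was at 7.69, 128, 35.5 and 59.2 FPKM in FMC and at 27.0 and 80.9 FPKM in FM. Ccl6, 57364 bases away, was at 61.9, 37.7, 33.7 and 68.3 FPKM in FMC and at 20.5 and 79.9 FPKM in FM. On the other side Taf15, a gene for an RNA-binding protein 19035 bases away, was at 30.1, 59.6, 53.7 and 32.0 FPKM in FMC and at 32.3 and 16.5 FPKM in FM. In all 3 genes the groups overlapped.

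Among 13 other chemokine receptors tested limma called 0, with 7 higher and 6 lower, and 1 higher and 2 lower at an unadjusted p under 0.05, where all genes gave 1.14% and 4.2%. Their median log2 difference was 0.10, and from -0.10 to 0.32 with 1 library left out. In 2 of the 13 every FMC library exceeded both FM libraries and in 2 the reverse held, against 4.34% and 8.22% of all genes. The 3 with the smallest p include a pair of atypical receptors, which bind chemokines without G protein signalling. Ackr1 (Darc in the table), which binds Ccl5 on erythrocytes and venules, was listed at 0 in FMC 1, with 0.268, 0.664 and 0.0253 FPKM in FMC 2 to FMC 4, against 5.49 and 2.07 FPKM in FM. Ackr4 (Ccrl1 in the table), a scavenger of other CC chemokines, was at 7.34, 4.07, 0.669 and 5.19 FPKM in FMC, against 0.154 and 0.0803 FPKM in FM. Ccr10, a receptor for skin and mucosal chemokines, was listed at 0 in FMC 1, with 0.112, 0.0389 and 0.244 FPKM in FMC 2 to FMC 4, against 1.82 and 3.58 FPKM in FM. These 3 genes did not overlap between the groups, and their adjusted p lay between 0.603 and 0.862 (limma). The other gene wholly above was Ccr7, a homing receptor of T cells and dendritic cells named after its values were seen, at 10.4, 1.78, 1.84 and 1.64 FPKM in FMC, against 0.802 and 0.331 FPKM in FM. Ackr2 (Ccbp2 in the table), a scavenger that takes up Ccl5, was under the filter, at 0.664, 0.827, 0.0804 and 3.81 FPKM in FMC and 0.527 and 0.0154 FPKM in FM.

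Downstream of the receptors, 25 of 26 genes for G protein subunits, arrestins, receptor kinases and effectors were tested, and limma called 0, with 10 higher and 15 lower and a median of -0.15 (0 at an unadjusted p under 0.05). With 1 library left out that median ran from -0.26 to 0.10. Gnai2, the main inhibitory G protein alpha subunit of leukocytes, named here after its values were seen, was at 72.7, 70.6, 100.3 and 104 FPKM in FMC and at 71.0 and 84.6 FPKM in FM. Gnb2, a beta subunit, was at 38.0, 14.1, 22.3 and 40.1 FPKM in FMC, below 51.4 and 80.1 FPKM in FM, a difference of -1.25 ± 0.56 in log2 (SE; limma, adjusted p = 0.940). Of the partners of Cd44, 16 of 19 were tested with 0 calls by limma (0 at an unadjusted p under 0.05), 9 higher and 7 lower and a median of 0.07, which ran from -0.13 to 0.29 with 1 library left out. Cd74, the MHC class II invariant chain and a receptor component that signals with Cd44, was at 4463, 2464, 4039.5 and 4943 FPKM in FMC, above 1336 and 2299 FPKM in FM (log2 difference 1.13 ± 0.70 SE; limma, adjusted p = 0.993). Spp1, which encodes the Cd44 ligand osteopontin, was at 14.3, 54.0, 17.6 and 27.3 FPKM in FMC and at 4.41 and 25.2 FPKM in FM. Moesin (Msn), which ties Cd44 to the actin cortex, was at 135, 96.7, 128 and 98.9 FPKM in FMC and at 113 and 80.1 FPKM in FM, and both genes overlapped between the groups. Of the proteoglycans and heparan sulphate enzymes that can hold chemokines, 8 of 12 were tested with 0 calls by limma (0 at an unadjusted p under 0.05), 4 higher and 4 lower, and a median of -0.08, which ran from -0.25 to 0.32 with 1 library left out.

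Genes known to act on the Ccl5 promoter or to induce it were split. Of 13 tested out of 16, limma called 0, 6 were higher and 7 lower, and 1 was higher at an unadjusted p under 0.05, where 1.14% of all genes were. The median log2 difference was -0.03, and from -0.19 to 0.053 with 1 library left out. Irf7, an interferon regulatory factor, was at 24.4, 20.3, 20.6 and 31.4 FPKM in FMC, above 10.9 and 6.82 FPKM in FM (log2 difference 1.36 ± 0.51 SE; limma, adjusted p = 0.790). Rela, an NF-kappaB subunit, had the reverse order, with 11.2, 5.77, 16.4 and 21.7 FPKM in FMC, below 29.96 and 38.3 FPKM in FM. Jun, a subunit of the AP-1 transcription factor, was at 232, 248, 306 and 136 FPKM in FMC, below 319.9 and 513 FPKM in FM. Of the 13 genes 1 lay wholly above and 2 wholly below, against 4.34% and 8.22% of all genes.

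The 2 genes nearest to Ccl5 in pattern encode interferon-induced chemokines. Likeness was the root mean square difference between the log2(FPKM + 1) profiles over the 6 libraries, each centred on its own mean, among 7938 named genes with a mean of at least 5 FPKM. The nearest was Cxcl11 at a distance of 1.004 (log2 units), followed by Cxcl9 at 1.007, Slamf7 at 1.07, Ng23 at 1.21 and Il1rn at 1.27, against a median distance of 2.56 and a spread of 2.52 of Ccl5 about its own mean. Cxcl11, a ligand of Cxcr3 on T cells, was at 13.5, 5.28, 9.51 and 43.3 FPKM in FMC and at 0.800 and 1.48 FPKM in FM. Il1rn, the interleukin 1 receptor antagonist, was at 23.5, 7.66, 4.25 and 17.2 FPKM in FMC and at 1.04 and 0.614 FPKM in FM. In Ccl5, Cxcl11, Cxcl9 and Slamf7, FMC 4 was the highest library and both FM libraries were the lowest. Nearness over 6 libraries is a description: any gene much higher in FMC lies near Ccl5.

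**Figure D4:**
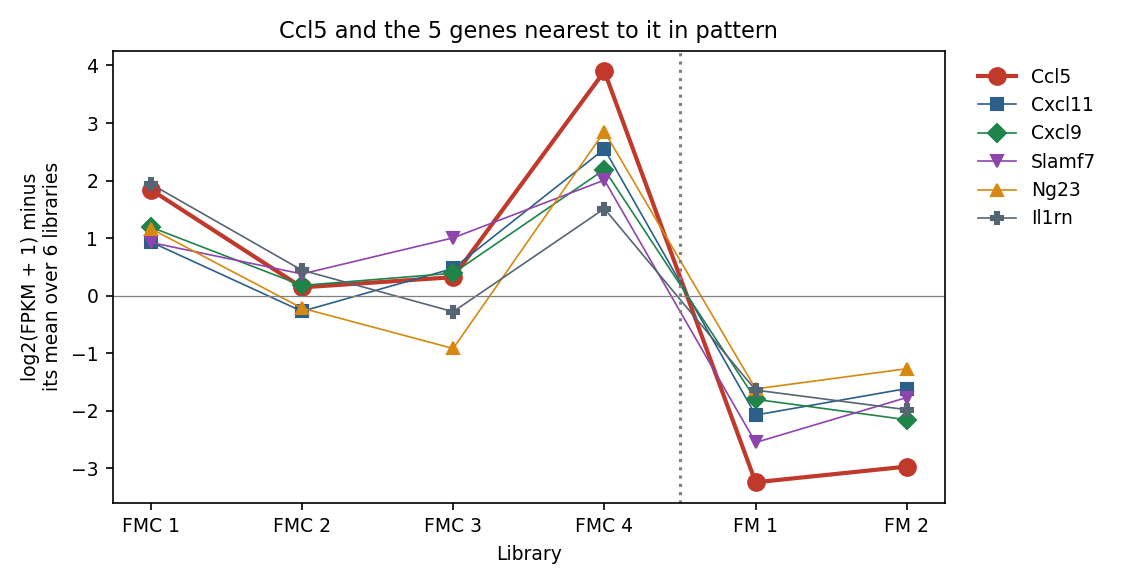
Log2(FPKM + 1) of Ccl5 and of the 5 genes nearest to it, each minus its mean over the 6 libraries, by library with FMC left of FM. Lines join the points of a gene for the eye only and carry no order of libraries. All 6 genes lie below their mean in both FM libraries and peak in FMC 4, except Il1rn, which peaks in FMC 1.

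The receptors had other companions. The nearest to Ccr1 was Sqle, the squalene epoxidase gene of sterol synthesis, at a distance of 0.17, with 5.10, 4.27, 4.06 and 3.08 FPKM in FMC and 6.51 and 16.9 FPKM in FM. The nearest to Ccr3 was Igfbp4, an insulin-like growth factor binding protein gene, at 0.33, the nearest to Gpr75 was Npdc1 at 0.35, and the nearest to Cd44 was Rbbp6, a ubiquitin ligase gene, at 0.15. Rbbp6 was at 193, 54.7, 106 and 177 FPKM in FMC and at 128 and 115 FPKM in FM, so that FMC 2 was the lowest library, as for Cd44.

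Markers of other cells that can make Ccl5 were measured in the same libraries. The summed level of 16 T cell markers was 161, 40.4, 42.2 and 38.8 FPKM in FMC 1 to FMC 4, against 39.3 and 33.8 FPKM in FM 1 and FM 2. The T cell sum stood apart in FMC 1 and lay between 38.8 and 42.2 FPKM in the other FMC libraries. Ccl5 was highest in FMC 4. Of the 14 T cell markers tested 10 were higher and 4 lower (0 called by limma, 0 at an unadjusted p under 0.05, median 0.57). Of all 18208 genes 7923 were higher and 10285 lower. Lck, a kinase of the T cell receptor, was at 25.1, 11.8, 5.30 and 6.63 FPKM in FMC, above 3.04 and 2.21 FPKM in FM. The median of the T cell markers was -0.0069 without FMC 1 and -0.13 with the libraries of adjacent dates as a block. FMC 1 and FMC 4 do not enter the group difference under that block, so these values are not separate checks. Cd3e, a chain of the T cell receptor complex, was at 20.4, 0.908, 4.46 and 3.80 FPKM in FMC and at 0.981 and 18.4 FPKM in FM. The Ccl5 difference was 4.66 with all libraries and 4.56 without FMC 1, and the part of T cells in it was not tested.

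The 12 NK and cytotoxic markers summed to 63.8, 18.6, 12.9 and 6.00 FPKM in FMC, below 112 and 65.8 FPKM in FM. Klrd1, an NK receptor chain, made up most of the FM sum, with 4.61, 13.1, 1.08 and 3.64 FPKM in FMC, against 84.4 and 35.7 FPKM in FM. The order of the sums did not hold for each marker. Nkg7 was at 46.7, 2.06, 7.30 and 0.306 FPKM in FMC and at 6.10 and 11.1 FPKM in FM, so FMC 1 was its highest library. Gzma in FMC 1 (4.83 FPKM) also exceeded both FM libraries (3.36 and 0.745 FPKM). The granzyme gene Gzmb was at 0.433, 0.0699, 0.303 and 0.0328 FPKM in FMC, and both FM libraries list it at 0. Of the 5 NK and cytotoxic markers tested all 5 were lower in FMC (0 called by limma, 2 at an unadjusted p under 0.05). Of all 18208 genes 10285 were lower, and 4.2% were lower at that p. Platelet and megakaryocyte markers summed to 84.7 to 165 FPKM in FMC and to 172 and 267 FPKM in FM, most of it Pf4, which border macrophages also express. The part of T cells, NK cells or platelets in the Ccl5 level was not tested.

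Cells known for Ccr1, Ccr3 or Cd44 were looked at in the same way. Of 7 border-associated macrophage markers 6 had a value in all libraries, and these summed to 345, 295, 183 and 277 FPKM in FMC, below 428 and 548 FPKM in FM, the same order of groups as Ccr1. All 6 were lower in FMC (0 called by limma, 1 at an unadjusted p under 0.05). Of all 18208 genes 10285 were lower, and 4.2% were lower at that p. Mrc1, the mannose receptor gene, was at 87.9, 60.5, 78.9 and 66.7 FPKM in FMC and at 126 and 113 FPKM in FM. The part of border macrophages in the Ccr1 difference was not tested. Monocyte and neutrophil markers summed to 53.9 to 523 FPKM in FMC and to 383 and 50.5 FPKM in FM 1 and FM 2. Eosinophil and mast cell markers summed to 169, 49.9, 48.6 and 90.8 FPKM in FMC and to 68.4 and 131 FPKM in FM. In FMC 1 most of that sum came from Siglec5 (83.1 FPKM) and Prg2 (60.6 FPKM), while the eosinophil peroxidase gene Epx was at 0.373 FPKM there and Prg3 was listed at 0. Of the 9 tested, 5 were higher and 4 lower in FMC (0 called by limma). At an unadjusted p under 0.05 limma gave 1 of the 9, Ear2, as lower, against 4.2% of all genes. Ear2 was listed at 0 in FMC 1, with 2.13, 1.69 and 3.74 FPKM in FMC 2 to FMC 4, against 26.3 and 73.1 FPKM in FM. The part of eosinophils and mast cells in the Ccr3 level was not tested. Astrocyte markers summed to 119 to 122 FPKM in FMC and 122 and 144 FPKM in FM, nearly all from Slc1a3, and neuron and photoreceptor markers to 2.35 to 10.0 FPKM in FMC and 5.30 and 8.34 FPKM in FM. Microglia markers summed to 3335 to 5637 FPKM in FMC and to 3389 and 6610.1 FPKM in FM, and 11 of 12 were lower in FMC with a median log2 difference of -0.22 (0 called by limma, 0 at an unadjusted p under 0.05), where 10285 of all 18208 genes were lower. That median was 0.20 without FM 2 and -0.71 without FM 1, so its sign depends on 1 library.

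**Figure D5:**
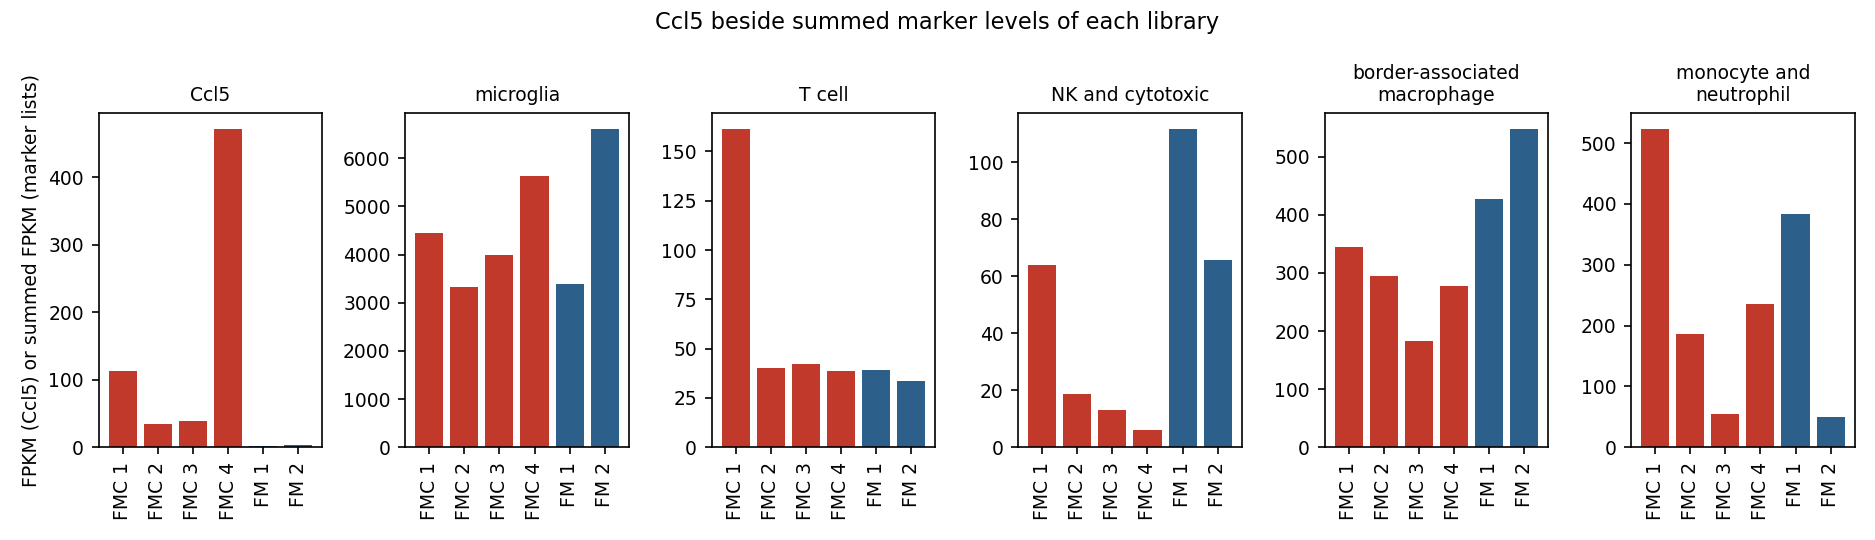
Ccl5 (FPKM) and the summed FPKM of 5 marker lists in each library, red for FMC and blue for FM, each panel on its own linear axis from 0. Ccl5 is highest in FMC 4 (471 FPKM) and the T cell sum in FMC 1 (161 FPKM). The border macrophage sum and the NK and cytotoxic sum are lower in all FMC libraries. For the NK and cytotoxic sum the gap is narrow in FMC 1 (63.8 FPKM, against 65.8 FPKM in FM 2).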

How the data were processed

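Microglia were enriched on a Percoll gradient and flow sorted, and TRIzol-extracted RNA was amplified by the Ovation RNA-Seq method and read on an Illumina HiSeq from paired-end libraries, per the labels' protocols. Per the submitters' processing notes, Cufflinks 2.0.2, TopHat2 2.0.4, Bowtie2 2.0.0, CASAVA 1.8.2 and the mm9 build were used, in roles not stated. The authors deposited FPKM per gene and library. The sources used here do not give the strand setting. Mitochondrial genes are at 0 throughout in 32 of 37 cases, so a 0 may be a failed estimate and is written as listed at 0. Of 37447 genes 426 lack a value somewhere and were left out.

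Depth relative to FMC 2, from the steps of low FPKM values, was 1.18 to 1.94 in the other libraries; 6 of 15 pairs lay within 0.1 (log2) of the joint estimate, so it is rough. Values were tested as log2(FPKM + 1) for the 18208 genes that reached 1 FPKM in 2 or more libraries, with limma 3.58.1 in R 4.3.3, intensity trend, two-sided, Benjamini-Hochberg over all genes, threshold 0.05. Exact permutation tests used the absolute difference of means over 15 splits. P-values measure the spread between these libraries. The fit was tested on simulated data with normal noise of equal spread in both groups, so unequal spread was not covered.

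The genes and lists were chosen with earlier results of these data known. Named are the 5 genes, up to 3 genes per list by p, receptor-sharing ligands, atypical receptors, Cd44 partners, cell markers and nearest genes, with exceptions stated. A gene of the list of Ccl5 regulators is not reported here. Older symbols were matched by hand. Ccl28, Siglecf and Tubb3 matched no row by these symbols. Siglec5 (ENSMUSG00000039013) is an older symbol of Siglecf, so that gene was measured and is reported as Siglec5. Alternatives were no filter or one on a mean of 5 FPKM, a pseudocount of 0.1, quantile or median ratio normalization, array weights, no trend, sex as covariate, blocks by replicate number or date, and each library left out. The list medians under these were added after the data were seen. When an FM library is left out, the lone one is assumed to vary like FMC.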

Additional observations from a re-analysis of the deposited data

Results flagged for a closer look

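Among the 4 FMC libraries, 5 genes and 15 list sums were examined for a sample far from the others, and chance flags about 1 in 20 such groups. The summed T cell markers of FMC 1, at 161 FPKM, stood apart from 38.8 to 42.2 FPKM in the other FMC libraries. The summed regulators of Ccl5 transcription of FMC 3, at 717 FPKM, stood apart from 520 to 552 FPKM in the other FMC libraries. The summed platelet and megakaryocyte markers of FMC 4, at 165 FPKM, stood apart from 84.7 to 92.8 FPKM in the other FMC libraries, and lay under both FM libraries. None of Ccl5, Ccr1, Ccr3, Gpr75 and Cd44 had such a library. Ccl5 in FMC 4 came just short of the limit, at 471 FPKM against 34.0 to 113 FPKM in the other FMC libraries.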

How the results depend on the processing

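Ccl5 was higher in FMC under all 16 alternatives, with a log2 difference from 3.34 (libraries of adjacent dates as a block) to 5.13 (without FMC 2) and an adjusted p from 0.217 to 0.996 (limma). Ccr1 was lower under all 16, from -1.68 to -0.84. The date block compares only FMC 2 with FM 1 and FMC 3 with FM 2. FMC 1 and FMC 4 share no date block with an FM library and do not enter its estimate. Ccr3 was lower under 15, from -1.75 to -0.50, and fell under the filter of a mean of at least 5 FPKM. Gpr75 was higher under 16, from 0.30 to 1.89. Cd44 was higher under 15, from 0.04 to 0.66, and turned to -0.39 with the date block. That value rests on -0.92 for FMC 2 against FM 1 and 0.15 for FMC 3 against FM 2. None of the 5 genes passed the threshold under any alternative run. The count of genes called over the whole table was 5, and became 1 (higher) with a pseudocount of 0.1, 0 without a filter, 0 with a mean of at least 5 FPKM, 10 without an intensity trend, 0 with sex as covariate, 0 with the replicate block and 3 with the date block (2 higher, 1 lower). With 1 library left out it ran from 0 to 8. With replicate numbers as a block Ccl5 differed by 4.10 and Ccr1 by -1.09. Such a block compares only FMC 1 with FM 1 and FMC 2 with FM 2. The labels do not say that a number is shared, so the numbers were not taken as pairs. Deviations from the group mean correlated across genes at 0.0314 and -0.0569 in same-numbered libraries, and at 0.0569 and -0.0685 in those of adjacent dates. With 2 FM libraries, the deviations of one mirror those of the other, so these correlations can neither show nor exclude pairing. Median ratio scaling moved the median of all genes from -0.12 to -0.0058 and quantile normalization to 0.035. Of 239 list medians under these alternatives 224 moved by less than the spread between libraries. Genes under about 1 FPKM, Ccr3 in FMC 1 and FMC 3 and Gpr75 in FMC 3 among them, are limited by an unknown number of fragments.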
